A study of Mus musculus with 8 samples.

Results

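MHC class II genes and their transactivator Ciita were followed in the prostates of NOD mice, a strain prone to autoimmune disease, after TNF blockade with etanercept. The 10 genes were taken by symbol from 54532 genes in the deposited count table: H2-Aa, H2-Ab1, H2-Eb1, H2-Ea-ps, H2-DMa, H2-DMb1, H2-Oa, H2-Ob, Cd74 and Ciita. All animals were male NOD/ShiLtJ mice, harvested at 30 weeks of age. From 25 weeks of age, 4 control mice (animals 1, 3, 65 and 69) were injected with the PBS vehicle and 4 mice (animals 17, 19, 50 and 52) with etanercept (4 mg/kg). Treatment lasted 5 weeks at 2 injections a week. Etanercept is a soluble receptor that traps TNF. The study treated mice with and without diabetes as 1 group, and the labels do not give the status of each mouse. One poly(A)-selected library was made from frozen prostate tissue per mouse, with 13760669 to 25178942 counts assigned to genes.

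MHC class II molecules are pairs of an alpha and a beta chain that display peptides from endosomes to CD4+ T cells. B cells, dendritic cells and activated macrophages make them. The invariant chain, encoded by Cd74, escorts new class II pairs to the endosome, where H2-DM exchanges the remnant of that chain for antigen peptides and H2-O restrains H2-DM. Ciita does not bind DNA itself and is recruited by the factors seated on the X and Y boxes of class II promoters, among them RFX and NF-Y. Interferon gamma is a main inducer of Ciita. NOD mice lack a working I-E alpha chain. The reads of both groups were aligned to the mm10 genome, which is of another strain, and the effect of this on reads from polymorphic class II exons was not tested.

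In all, 8 of the genes lie in the H2 region of mouse chromosome 17 and Ciita lies on chromosome 16. In GENCODE M21 coordinates (GRCm38), H2-Aa spans chr17:34282744-34287823 on the minus strand, H2-Eb1 spans chr17:34305867-34316674 on the plus strand and Ciita spans chr16:10480059-10528418 on the plus strand. The 150 bases before the RefSeq start sites of H2-Aa and H2-Eb1 (GRCm38.p6) are given because both hold the Y box letters and belong to the classical alpha and beta chain genes. The H2-Aa stretch is chr17:34287824-34287973 on the minus strand and the H2-Eb1 stretch is chr17:34305717-34305866 on the plus strand, both 5′ to 3′. Capitals mark the searched letters, which were the Y box CTGATTGG, the CCAAT box CCAAT and the X1 box core ACNGATG on both strands. The last 5 letters of the Y box are themselves the reverse complement of the CCAAT box. All promoter letters and positions are those of the reference genome, which is of another strain, and differences in NOD mice were not tested.
H2-Aa: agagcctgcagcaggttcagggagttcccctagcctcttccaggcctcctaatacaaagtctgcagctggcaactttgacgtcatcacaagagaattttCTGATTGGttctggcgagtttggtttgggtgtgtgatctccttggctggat
H2-Eb1: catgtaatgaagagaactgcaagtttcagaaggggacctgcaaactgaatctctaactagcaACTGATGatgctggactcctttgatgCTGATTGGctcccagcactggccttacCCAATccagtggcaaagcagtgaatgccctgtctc

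In windows of 300 bases around the start site, the Y box was found at -51 in H2-Aa, -62 in H2-Eb1 and -46 in H2-Oa, counted from the start site to its first base. Of 32851 mouse promoters of that length, 4.1% hold the Y box, 37.4% the CCAAT box and 9.85% the X1 core. In H2-Eb1 the X1 core began at -88, 29 bases before the ATTGG of the Y box. The same pair of letters was spaced by 30 bases in H2-DMb1, where the X1 core began at -91, and by 30 bases in its neighbour H2-DMb2, where it began at -120. In H2-Oa, the X1 core letters at -137 and ATTGG stood 94 bases apart. In H2-Aa the X1 core letters were found on the other strand, at -232, outside the stretch shown. The search took exact letters only, so an X box written in other letters would be missed. Whether these matches are working X boxes was not tested. H2-Ob held ATTGG at -57. Of the 2 H2-DMa promoters in the table, 1 held ATTGG, at -198, and the other held none of the 3 motifs.

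H2-Ea-ps, the broken I-E alpha chain gene, had 0 counts in all 8 libraries, which allows a share of up to 1.19e-05% to 2.18e-05% of counts (3 counts per library, counting error only). The other 9 genes passed the filter on low counts. They took from 0.11% of all counts in control 69 to 0.582% in control 3. Cd74 made up 54.4% to 66.7% of the counts of the 10 genes in each mouse. Levels between genes were compared as FPKM, fragments per kilobase of exon scaled to library size, and levels of a gene between mice as CPM, counts scaled to library size without length. Mean FPKM in control mice was 1342.1 ± 685 for Cd74, 384 ± 181 for H2-Eb1, 130 ± 73.1 for H2-Ab1, 46.3 ± 22.5 for H2-Aa, 20.6 ± 10.8 for H2-DMa and 10.7 ± 5.27 for H2-DMb1 (SD, n = 4). The 3 lowest were H2-Oa at 3.44 ± 1.83 FPKM, Ciita at 1.84 ± 0.796 FPKM and H2-Ob at 0.927 ± 0.908 FPKM (SD, n = 4). The order from Cd74 to H2-DMb1 was the same in 8 of 8 mice. H2-DMb1 was above H2-Oa in 7 of 8 mice, H2-Oa above Ciita in 7 and Ciita above H2-Ob in 7, so the lower neighbours overlapped. When the length of the principal transcript was used, H2-Aa was at 156 ± 75.7 FPKM in control mice and Ciita was above H2-Ob in 5 of 8 mice.

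The comparison between the groups asked whether TNF blockade altered class II transcript levels in the prostate. All 9 measured genes had a negative log2 fold change (etanercept over control), from -1.19 for H2-Aa to -0.25 for H2-Oa, with a median of -0.94. Over the 15472 genes tested, 51.0% were negative and the median was -0.01. None of the 9 passed the adjusted threshold of 0.05 in edgeR's quasi-likelihood test, where 0 genes of the whole table were called (0.0%) and the smallest adjusted p among the 9 was 0.739. Before adjustment, at the threshold of 0.05, H2-Aa and Ciita were lower. These 2 of 9 stand against 3.63% of all genes tested that were lower by the same rule and 2.99% that were higher. DESeq2 called 21 genes (0.0898% of 23393 tested), none of them among the 9. By that tool 6 of the 9 were lower under the unadjusted threshold, beside 3.6% of its genes tested. For none of the 9 did every etanercept mouse lie below every control mouse, an arrangement found in 2.53% of genes tested. In bulk tissue, fewer class II-bearing cells and less RNA per cell cannot be told apart.

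**Figure D1:**
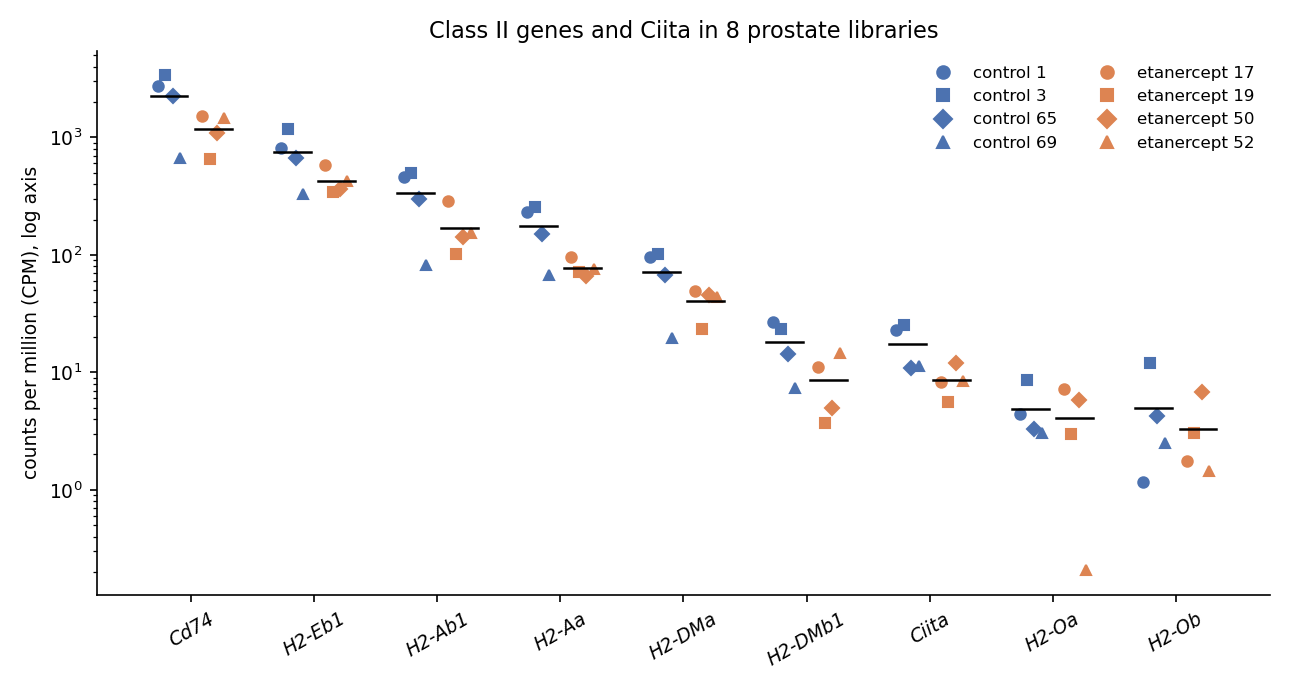
CPM (log axis) of the 9 measured genes in each mouse, with blue symbols for 4 control mice, orange symbols for 4 etanercept mice and a black line at each group mean. Control 1, 3 and 65 were the 3 highest mice for Cd74, H2-Eb1, H2-Ab1, H2-Aa and H2-DMa, while control 69 lay among the lowest.

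The genes of the classical alpha and beta chains were each highest in control 3, then control 1, then control 65. H2-Aa, the I-A alpha chain, was at 231, 255, 151 and 66.8 CPM in control 1, 3, 65 and 69, and at 96.2, 71.1, 65.9 and 76.2 CPM in etanercept 17, 19, 50 and 52. Control 1, 3 and 65 were above the etanercept mice, and control 69 was below all but etanercept 50. The log2 fold change of H2-Aa was -1.19 (SE 0.36), a 2.27-fold lower level, with an unadjusted p of 0.00876 and an adjusted p of 0.739 in edgeR. H2-Ab1, the I-A beta chain, was at 456, 495, 301 and 81.3 CPM in control 1, 3, 65 and 69. It was at 285, 101, 141 and 154 CPM in etanercept 17, 19, 50 and 52. Control 69 was the lowest of the 8 mice, and the log2 fold change of -0.97 (SE 0.51) had an adjusted p of 0.782 in edgeR. H2-Eb1, the I-E beta chain, was at 805, 1181, 672 and 330 CPM in control 1, 3, 65 and 69 and at 583, 341, 366 and 426 CPM in etanercept 17, 19, 50 and 52. Its order of mice matched that of H2-Ab1, with a log2 fold change of -0.80 (SE 0.36) and an adjusted p of 0.743 in edgeR. The alpha and beta chains of I-A did not keep a fixed ratio. H2-Aa to H2-Ab1 counts were at 0.501 to 0.515 in control 1, 3 and 65 and at 0.822 in control 69, against 0.338 to 0.701 in etanercept mice.

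Cd74, the invariant chain gene on chromosome 18, was the most abundant of the 10 transcripts in each mouse. It was at 2744.4, 3364.7, 2230.7 and 674 CPM in control 1, 3, 65 and 69, and at 1518.6, 660, 1086.3 and 1449.2 CPM in etanercept 17, 19, 50 and 52. The groups overlapped through control 69, which was above etanercept 19 alone. The log2 fold change was -0.94 (SE 0.47), with an adjusted p of 0.769 in edgeR. The Cd74 to H2-Ab1 count ratio was 7.13 ± 0.962 in control and 7.23 ± 1.74 in etanercept mice (SD, n = 4).

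H2-DM, the peptide exchange factor, was measured through its alpha chain H2-DMa and its beta chain H2-DMb1. H2-DMa was at 95.5, 101, 68.0 and 19.7 CPM in control 1, 3, 65 and 69, and at 49.4, 23.2, 45.9 and 43.7 CPM in etanercept 17, 19, 50 and 52. Its log2 fold change was -0.81 (SE 0.45), with an adjusted p of 0.791 in edgeR. Of its exon length, 10.4% lies opposite exons of Brd2, and whether counting used strand is not given in the sources used here. H2-DMb1 was at 26.9, 23.5, 14.4 and 7.35 CPM in control 1, 3, 65 and 69, and at 11.1, 3.69, 5.02 and 14.6 CPM in etanercept 17, 19, 50 and 52. For H2-DMb1, unlike H2-DMa, etanercept 52 was above 2 control mice, and the log2 fold change was -1.07 (SE 0.52, adjusted p = 0.765 in edgeR). H2-DMb2, a near copy beside H2-DMb1, holds 19.1% of the 75-base windows of the H2-DMb1 transcript unchanged. The study's paired reads were longer than 75 bases. How many of them matched both copies was not measured, so the split between the copies remains uncertain. H2-DMb2 was the more abundant copy in each mouse, and its log2 fold change was -0.60 (SE 0.41, adjusted p = 0.846 in edgeR). The share of H2-DMb1 in the counts of both copies was 28.1% ± 4.75 in control mice and 20.5% ± 7.86 in etanercept mice (SD, n = 4), and the groups overlapped.

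H2-O, the inhibitor of H2-DM found mainly in B cells and thymus, did not follow the order of mice seen for H2-Ab1 and H2-Eb1. H2-Oa, its alpha chain, was at 4.38, 8.6, 3.31 and 3.07 CPM in control 1, 3, 65 and 69, and at 7.28, 2.99, 5.80 and 0.208 CPM in etanercept 17, 19, 50 and 52. The lowest of these values stood for 3 counts in etanercept 52, and 22.8% of the exon length of H2-Oa lies opposite the antisense gene BC051537. H2-Ob, its beta chain, was at 1.16, 12.1, 4.23 and 2.49 CPM in control 1, 3, 65 and 69, and at 1.75, 3.05, 6.82 and 1.46 CPM in etanercept 17, 19, 50 and 52. The highest and the lowest H2-Ob values were both in control mice. The log2 fold change was -0.25 (SE 0.81) for H2-Oa and -0.60 (SE 0.78) for H2-Ob, with adjusted p of 0.99 and 0.943 in edgeR. Without control 3 the log2 fold changes turned positive, at 0.18 for H2-Oa and 0.33 for H2-Ob, and without etanercept 52 that of H2-Oa was 0.13. The H2-O to H2-DM FPKM ratio (principal transcript length) was 0.0783 ± 0.0358 in control and 0.0997 ± 0.062 in etanercept mice (SD, n = 4).

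Ciita, the master transactivator, was at 22.9, 25.3, 10.8 and 11.3 CPM in control 1, 3, 65 and 69, and at 8.21, 5.62, 12.1 and 8.45 CPM in etanercept 17, 19, 50 and 52. Control 1 and 3 were above all other mice, and etanercept 50 was above control 65 and 69. The log2 fold change was -1.03 (SE 0.37), with an unadjusted p of 0.0206 and an adjusted p of 0.739 in edgeR. Control 69 was not the lowest mouse for Ciita, unlike for H2-Ab1, H2-Eb1 and H2-DMa. Cd74 counts per Ciita count ran from 59.7 in control 69 to 206 in control 65. Of the Ciita exon length, 3.5% lies opposite Dexi.

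Single mice decided how many of the 9 genes were under the unadjusted threshold. Without control 69, 7 of 9 were lower by that rule (H2-Aa, H2-Ab1, H2-Eb1, H2-DMa, H2-DMb1, Cd74 and Ciita), where 5.98% of all genes tested were, and their smallest adjusted p was 0.274 in edgeR. The median log2 fold change of the 9 was then -1.19. Without control 3 the median was -0.67 and H2-Aa alone was under the unadjusted threshold, where 483 of 15927 genes tested were lower by that rule. H2-Aa stayed under that threshold whichever mouse was left out, with log2 fold changes from -1.46 to -0.95. In those fits 398 of 15996 (without control 65) to 956 of 15975 (without control 69) genes tested were lower.

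**Figure D2:**
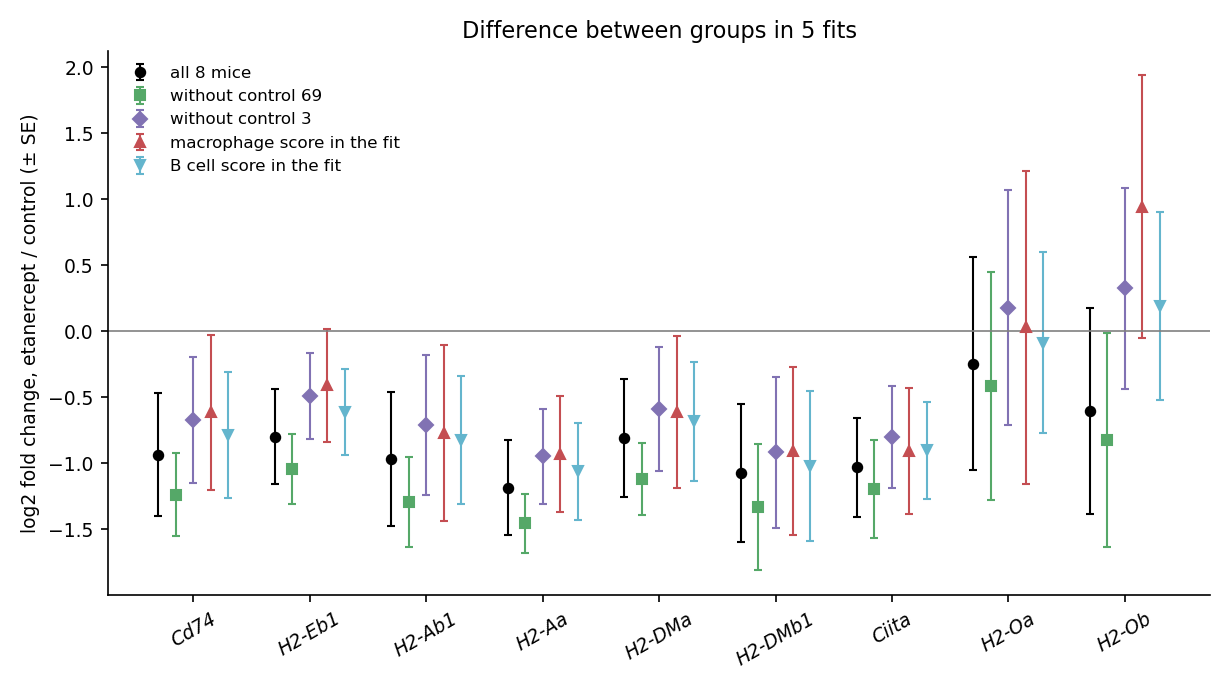
Log2 fold change (etanercept over control) ± SE of the 9 measured genes in 5 fits: all 8 mice, without control 69, without control 3, and with the macrophage or the B cell score as a covariate. Points for 7 genes lay below 0 in each fit shown, and those for H2-Oa and H2-Ob crossed 0.

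Leukocyte content was read from lists of marker genes, none of them a class II gene, scored as the mean of log2(CPM + 1). All 12 macrophage markers had counts, with a summed level of 516 to 1573.3 CPM in control and 440 to 605 CPM in etanercept mice. Of these, 5 of 12 were lower under the unadjusted threshold (3.63% of all genes tested) and 11 of 12 had a negative log2 fold change (51.0% of all genes tested). C1qa, a complement subunit made by tissue macrophages, had a log2 fold change of -1.18 (SE 0.37), C1qb of -0.86 (SE 0.34) and lysozyme Lyz2 of -0.42 (SE 0.43), with adjusted p of 0.739, 0.739 and 0.921 in edgeR. The macrophage score was 5.0 ± 0.61 in control and 4.41 ± 0.24 in etanercept mice (SD, n = 4), a difference of -0.58 (exact two-sided permutation p = 0.114, adjusted over 14 lists 0.4). The 12 B cell markers summed to 117 to 459 CPM in control and 57.5 to 234 CPM in etanercept mice, and 0 of 12 were lower by that rule. Cd79a and Cd79b, the signalling chains of the B cell receptor, had log2 fold changes of -0.99 (SE 0.57) and -0.59 (SE 0.60). The B cell score differed by -0.38 (exact permutation p = 0.543, adjusted 0.844). The dendritic cell score differed by -0.26 (exact permutation p = 0.429, adjusted 0.8), with 0 of 9 tested markers lower by that rule, and its leading genes Ccl22, Ccr7 and Itgax had log2 fold changes of -0.66, -0.80 and -0.21. The T cell score differed by -0.87 (exact permutation p = 0.0571, adjusted 0.4), with 5 of 12 markers lower by that rule, again beside 3.63% of all genes tested. Trbc2, Trac and Cd2, the most abundant T cell markers, had log2 fold changes of -1.18 (SE 0.55), -0.44 (SE 0.28) and -0.69 (SE 0.40). Negative log2 fold changes were found in 11 of 12 B cell, 8 of 9 tested dendritic cell and 12 of 12 T cell markers, beside 51.0% of all genes tested. None of the markers in these 4 lists was at 0 in all mice. The smallest p that 4 against 4 mice allow is 0.0286.

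Control 3 had the highest score in the macrophage, B cell, dendritic cell, T cell and plasma cell lists, and also in the adipocyte and skeletal muscle lists. Control 69 and etanercept 19 had the smallest share of counts in the class II genes and Ciita, at 0.11% and 0.115%. Control 69 had a macrophage score of 4.65 and a B cell score of 3.01, inside the range of the other mice. Its dendritic cell score (1.49) and general leukocyte score (4.04) were the lowest of all mice. Etanercept 19 had a dendritic cell score of 1.72 and a general leukocyte score of 4.22. Etanercept 17, with a share of 0.248%, had a dendritic cell score of 1.58. Plasma cell markers summed to 2783.2 to 39302.9 CPM in control and 1795.7 to 8777.9 CPM in etanercept mice, and 6 of 9 tested were lower under the unadjusted threshold, beside 3.63% of all genes tested. Adipocyte markers summed to 42.8 to 353 CPM in control and 38.5 to 56.5 CPM in etanercept mice. Seminal vesicle genes took 9.41% of counts in etanercept 17, 0.366% in control 69 and less elsewhere. Prostate epithelial markers were present in each mouse, at 5448.6 to 20069.0 CPM summed. The part of plasma cell, adipocyte, seminal vesicle and epithelial content in the class II values was not tested. Fits with a score as covariate were run for macrophages and B cells alone.

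With the macrophage score as a covariate, 7 of 9 log2 fold changes remained negative and 0 of 9 genes were under an unadjusted p of 0.05. Of 15472 genes tested in that fit, 404 were lower and 436 higher under this threshold. The log2 fold change was -0.93 (SE 0.44) for H2-Aa, -0.91 (SE 0.47) for Ciita and -0.61 (SE 0.59) for Cd74, against -0.41 (SE 0.43) for H2-Eb1. H2-Oa was then at 0.03 (SE 1.19) and H2-Ob at 0.94 (SE 0.99). With the B cell score as a covariate, H2-Aa was at -1.06 (SE 0.37) and Ciita at -0.90 (SE 0.37), both under an unadjusted p of 0.05, while H2-Ob was at 0.19 (SE 0.71). There 547 of 15472 genes tested were lower under this threshold. In these fits the smallest adjusted p of the 9 genes was 0.924 and 0.752 in edgeR. Cd74 CPM per summed CPM of the macrophage list was 5.32, 2.14, 2.73 and 1.19 in control 1, 3, 65 and 69, and 2.73, 1.2, 2.47 and 2.40 in etanercept 17, 19, 50 and 52. Control 1 was thus the mouse with most Cd74 for its macrophage markers, and control 3 was not. Per summed CPM of the B cell list, Cd74 was at 22.4, 7.33, 15.8 and 5.77 in control and at 6.49, 8.88, 6.78 and 25.2 in etanercept mice, in the same order of animals.

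Over the 8 mice, 36 correlations of the 9 genes with the macrophage, B cell, dendritic cell and T cell scores were computed, with exact permutation p over all pairings and Benjamini-Hochberg adjustment over the 36. These points share their libraries. For the macrophage score, Pearson's r ran from 0.18 for H2-Oa to 0.66 for H2-Eb1, and 0 of 9 passed. Cd74 had r = 0.53 (exact permutation p = 0.175, adjusted 0.263) and Spearman's rho = 0.33 (exact permutation p = 0.428, adjusted 0.571), and r was 0.05 without control 3 and etanercept 50. For the B cell score, r ran from 0.32 for H2-DMb1 to 0.80 for H2-Oa, and 0 of 9 passed. H2-Oa had r = 0.80 (exact permutation p = 0.0202, adjusted 0.0908) and rho = 0.93 (exact permutation p = 0.00223, adjusted 0.0804), and r was 0.75 without control 3 and etanercept 17 and 0.78 with both measures centred within groups. Cd74 had r = 0.49 with the B cell score (exact permutation p = 0.216, adjusted 0.278) and rho = 0.48 (exact permutation p = 0.243, adjusted 0.449), and r was 0.07 without those mice. For the dendritic cell score r reached 0.79, in H2-Aa, H2-Eb1 and Cd74, with 0 of 9 passing, and Cd74 was at 0.46 without control 1 and 3. For the T cell score, Ciita had r = 0.90 (exact permutation p = 0.000769, adjusted 0.0277) and rho = 0.86 (exact permutation p = 0.0107, adjusted 0.189). Its r was 0.69 without control 1 and 3 and 0.78 with both measures centred within groups, and neither of these passed the adjusted threshold. With log2(CPM + 0.1) and all 8 mice its r was 0.88, which did not pass either (exact permutation, adjusted p = 0.0732).

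**Figure D3:**
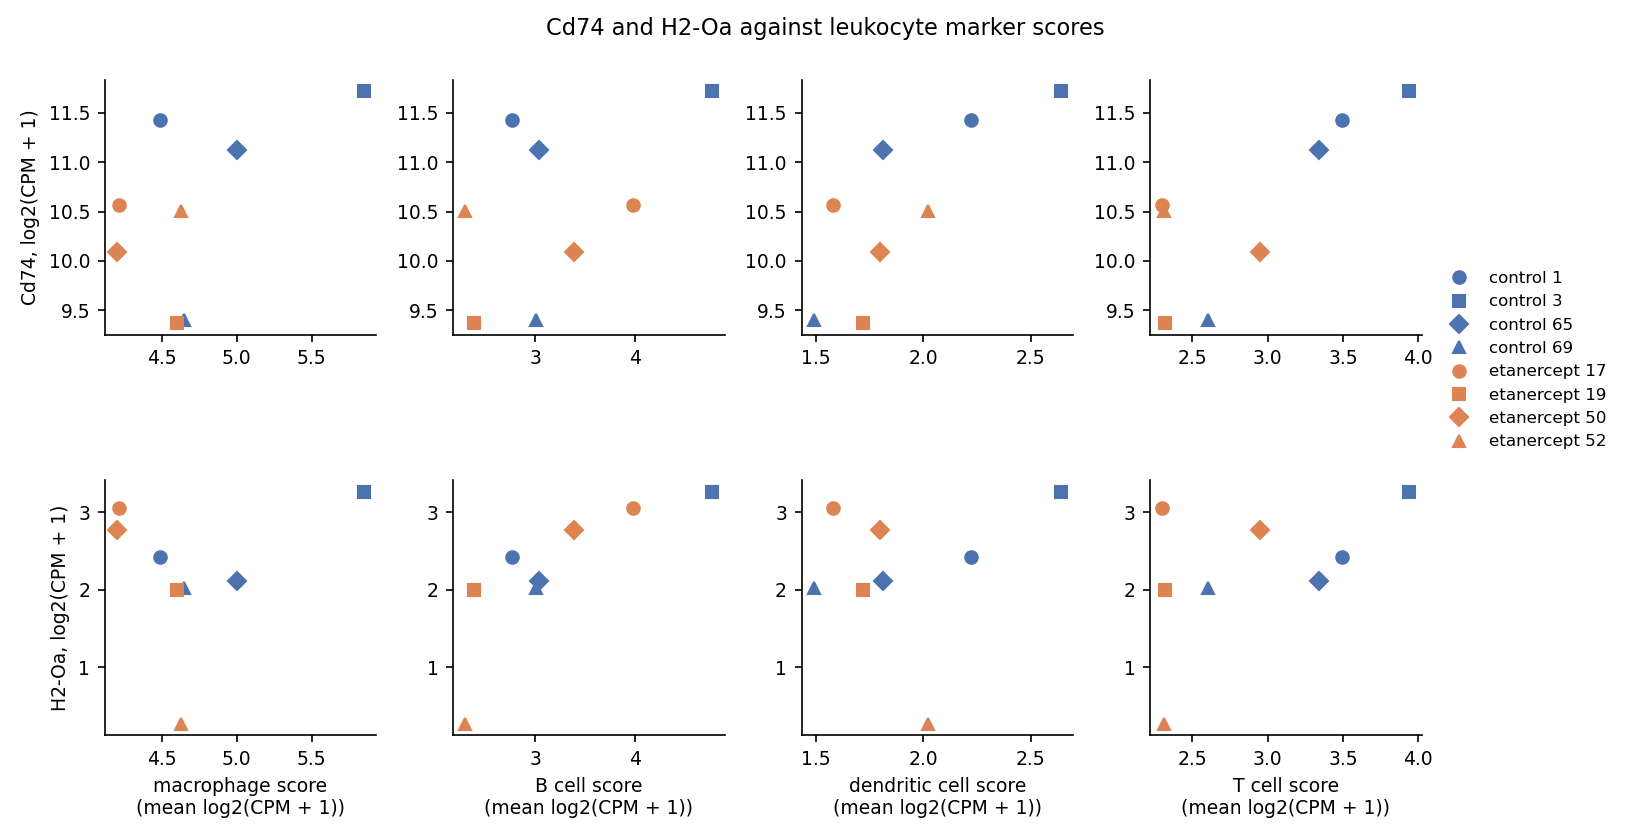
Log2(CPM + 1) of Cd74 (upper row) and H2-Oa (lower row) against the macrophage, B cell, dendritic cell and T cell scores (mean log2(CPM + 1) of each list), with 1 point per mouse, control in blue and etanercept in orange. Control 3 stood at the upper right of each panel, and r with the B cell score was 0.80 for H2-Oa and 0.49 for Cd74.

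The rest of the class II pathway was taken from 7 lists of 64 genes in all. None of their genes passed the adjusted threshold in edgeR. Under the unadjusted threshold 5 of the 59 tested were lower and 0 higher, beside 3.63% and 2.99% of all genes tested. Among the inputs to Ciita, 3 of 12 tested were lower, Spi1 and Irf1 among them. Spi1 (PU.1), a myeloid and B cell factor, had a log2 fold change of -0.87 (SE 0.31) and Irf1 of -0.51 (SE 0.19), each with an adjusted p of 0.739 in edgeR. Without control 3, Spi1 was at -0.52. Interferon gamma itself (Ifng) was not tested, since its counts were 54, 5, 4 and 0 in the control mice (1, 3, 65, 69) and 0, 7, 7 and 0 in the etanercept mice (17, 19, 50, 52). The single high value was in control 1.

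Of the 10 factors that assemble the class II enhanceosome, 0 were under an unadjusted p of 0.05 and the median log2 fold change was 0.11. Rfx5, the RFX subunit that binds the X box, had a log2 fold change of 0.37 (SE 0.26), Rfxap of 0.19 (SE 0.24) and Rfxank of -0.07 (SE 0.28). Nfya, the NF-Y subunit that reads the CCAAT box, was at 16.2 to 20.1 CPM in control and 20.3 to 25.5 CPM in etanercept mice, a narrow gap without overlap in a direction that 2.41% of genes tested showed, with a log2 fold change of 0.30 (SE 0.18, adjusted p = 0.802 in edgeR). Among 12 genes of endosomal processing, 1 was lower under the unadjusted threshold, beside 3.63% of all genes tested. This was Lgmn, the protease legumain, at 109, 154, 85.7 and 70.7 CPM in control and 55.3, 70.5, 61.5 and 68.9 CPM in etanercept mice. The narrow gap without overlap lay in a direction that 2.53% of genes tested showed. The log2 fold change of Lgmn was -0.71 (SE 0.24, adjusted p = 0.739 in edgeR). Ctss, the cathepsin that trims the invariant chain, had a log2 fold change of -0.51 (SE 0.32, adjusted p = 0.822).

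Turnover and trafficking genes gave 0 of 10 under the unadjusted threshold, and Mtor had the smallest p there, with a log2 fold change of 0.34 (SE 0.16, adjusted p = 0.743 in edgeR). Mtor was at 26.1 to 33.7 CPM in control and 34.7 to 40.7 CPM in etanercept mice, a narrow gap without overlap in a direction that 2.41% of genes tested showed. Of the other class II genes, H2-DMb2 is described above and H2-Eb2 ranged from 0.428 to 16.5 CPM, with a log2 fold change of -0.53 (SE 1.07). Costimulation gave 0 of 7 tested, with the smallest p in Cd274 (PD-L1) at -0.79 (SE 0.39, adjusted p = 0.769 in edgeR). Of the 6 surface partners tested, 1 was lower under the unadjusted threshold, beside 3.63% of all genes tested. This was Cxcr4, a receptor that also forms complexes with Cd74, at 18.9, 46.9, 13.7 and 8.16 CPM in control and 5.07, 7.97, 12.0 and 7.48 CPM in etanercept mice, with a log2 fold change of -1.43 (SE 0.52, adjusted p = 0.739). Its log2 fold change was -0.74 without control 3, the mouse with the highest level.

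**Figure D4:**
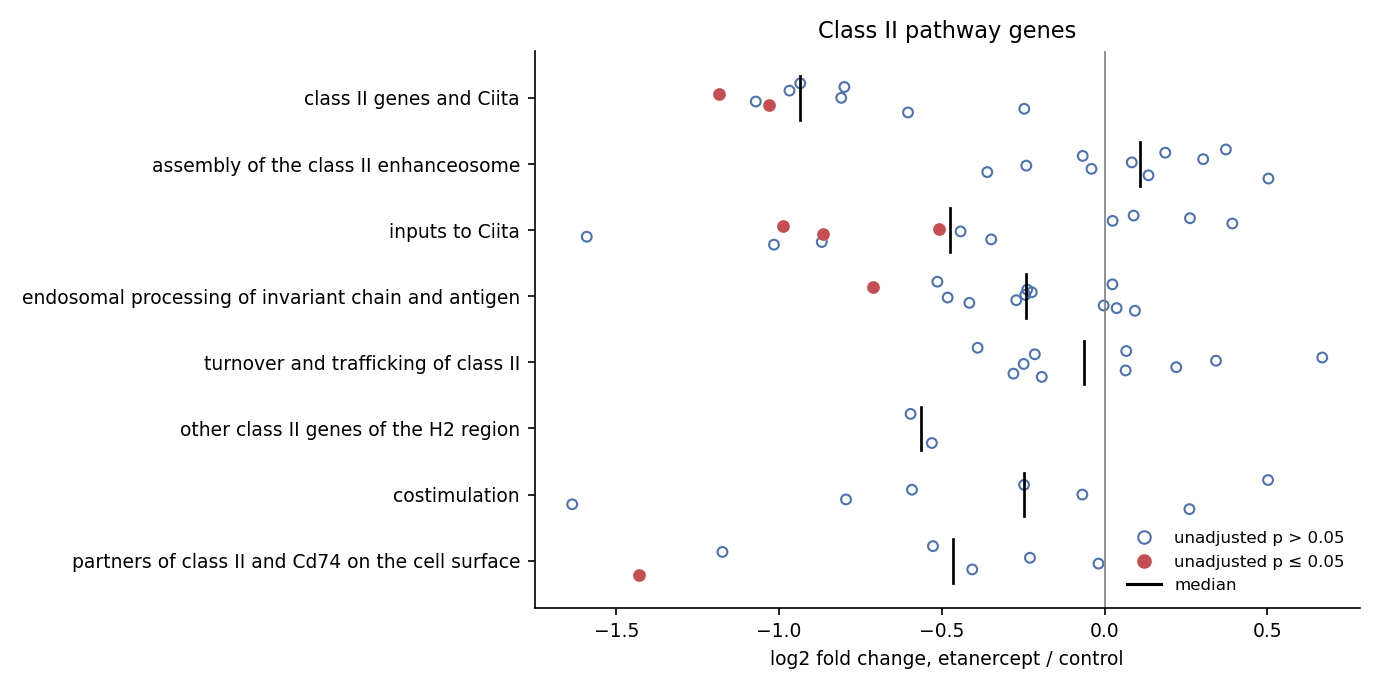
Log2 fold change (etanercept over control) of each tested class II gene, Ciita and the genes of 7 pathway lists, with filled red points under the unadjusted threshold of 0.05 and a black line at the median of each row. The medians were -0.94 for the class II genes and Ciita, -0.47 for the inputs to Ciita and 0.11 for enhanceosome assembly.

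The genes whose pattern over the 8 mice was most like the mean scaled level of the 9 genes were Hip1 (r = 0.985), Arhgap25 (r = 0.982), Slfn2 (r = 0.979), Dusp2 (r = 0.976) and Nfkbia (r = 0.976). Nfkbia encodes the NF-kappaB inhibitor, itself a target of TNF signalling. It was at 75, 90.8, 64.9 and 49.3 CPM in control 1, 3, 65 and 69 and at 56.4, 45.2, 50.2 and 44.7 CPM in etanercept 17, 19, 50 and 52. Dusp2, a phosphatase of activated leukocytes, ran from 2.14 CPM in control 69 to 15.9 CPM in control 3. Each of the 5 was highest in control 3, then control 1, then control 65. They were picked from 15472 genes by this likeness, so the r values are a description.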

How the data were processed

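Frozen prostates of 8 male NOD mice, 4 control and 4 etanercept, were profiled by poly(A) RNA-seq, and groups were taken from the sample titles. The authors deposited raw counts per gene, made per the labels with fastp, STAR 2.6.1d and featureCounts 1.5.0-p3 on mm10. The annotation and strand setting are not given in the sources used here, and 54495 of 54532 identifiers matched GENCODE M21. Reads from class II alleles that differ from the reference may have been lost, which was not tested. Counts per library ran from 13760669 to 25178942, and H2-Oa and H2-Ob rested on 3 to 181 counts per mouse.

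The genes and lists were chosen with earlier results of these data known. Counts were filtered with filterByExpr (minimum count 10, 15472 genes kept), scaled by TMM and tested with edgeR 4.0.16 (R 4.3.3) quasi-likelihood F tests with Benjamini-Hochberg adjustment over all genes tested. CPM values use TMM-scaled library sizes, and FPKM values divide these by the union exon length. Marker scores, means of log2(CPM + 1), were compared by exact permutation over 70 assignments. The edgeR fit was tested on simulated data with a lower dispersion than these data and larger fold changes than the class II genes showed. That step does not measure the power to find differences of the size seen here. Alternatives were DESeq2 1.42.0, RLE or library-size scaling, no filter, a robust fit, length or GC trend removal, a marker score as covariate, a pseudocount of 0.1, an animal number block and each mouse left out. FPKM by principal transcript length was added after seeing the data.

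Named were all 10 genes, H2-DMb2, pathway genes under an unadjusted threshold of 0.05 or with the smallest p of a list, the 3 most abundant markers of 4 leukocyte lists, and the 5 genes most correlated with the mean level. The values of 2 genes that this rule names are not reported here. Rfx5, Rfxap, Rfxank, Ctss, H2-Eb2 and Ifng were named for their roles. Promoters came from a RefSeq table, in which H2-Ab1, H2-Ea-ps, Cd74 and Ciita had no entry.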

Additional observations from a re-analysis of the deposited data

Results flagged for a closer look

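Of 68 groups of 4 mice tested for a value far from the other 3, 6 held one, and chance gives about 1 in 20 groups. Among control mice, the ratio of H2-Aa to H2-Ab1 counts in control 69 was 0.822, or 0.883 in FPKM by principal transcript length, above the other 3. Both flags are the same ratio scaled by length, so the tally of 6 counts it more than once. Control 3 had a B cell score of 4.77, the highest of its group, and control 69 an NK cell score of 1.35, the lowest of its group. Among etanercept mice, etanercept 50 had a T cell score of 2.95, and etanercept 52 had 25.2 Cd74 CPM per summed B cell marker CPM, both above their group.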

How the results depend on the processing

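The log2 fold changes of H2-Aa, H2-Ab1, H2-Eb1, H2-DMa, H2-DMb1, Cd74 and Ciita kept their negative sign under each alternative run. The calls across all genes stayed at 0 except with DESeq2, which called 21. H2-Oa turned positive with the macrophage score as a covariate (0.03), and H2-Ob with the macrophage (0.94) or B cell score (0.19). With 1 mouse left out in turn, H2-Oa ran from -0.68 to 0.18 and H2-Ob from -1.25 to 0.33. The genes lower at an unadjusted p of at most 0.05 numbered 2 in the reported fit, 6 with DESeq2, 4 without the filter and 0 with the macrophage covariate. Over all genes tested, 561 of 15472, 841 of 23393, 717 of 23795 and 404 of 15472 were lower in these fits, in the same order. With 1 mouse left out, from 1 to 7 class II genes were lower, where 398 of 15996 (without control 65) to 956 of 15975 (without control 69) of all genes tested were. With 1 mouse left out, pathway genes lower at that p ran from 3 (without control 3) to 13 (without control 69) and those higher from 0 to 1. Of all genes tested, 483 of 15927 were lower without control 3 and 956 of 15975 without control 69. Score differences with 1 mouse left out ran from -0.702 to 0.076 for B cell, -0.116 to 0.041 for neutrophil, -0.367 to 0.295 for leukocyte in general, -0.205 to 0.098 for lymphoid stroma, -0.088 to 0.188 for prostate epithelium and -1.18 to 0.766 for skeletal muscle. They stayed negative but varied in size for macrophage (-0.754 to -0.301), dendritic cell (-0.443 to -0.058) and T cell (-1.121 to -0.672). With log2(CPM + 0.1) the lymphoid stroma difference was 0.031. Without the 2 mice farthest from the median score, r with the macrophage score turned to -0.14 for H2-Ab1, -0.049 for H2-Eb1, -0.0026 for H2-DMa, -0.013 for H2-DMb1 and -0.40 for H2-Oa. It turned to -0.14 for H2-DMb1 with the B cell score, and to -0.66 for H2-Oa and -0.071 for Ciita with the dendritic cell score. The 1 correlation with the T cell score that passed became 0 with log2(CPM + 0.1), with group centring and without those 2 mice. The cause of these shifts was not tested. No paired analysis was possible because the groups share no animal number. A block for the animal number range left the same 2 genes, H2-Aa and Ciita, under the unadjusted threshold, where 434 of 15472 genes tested were lower.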
